A study of Mus musculus with 3 samples.

Results

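The guanylate-binding protein genes are a family of large GTPase genes of the mouse, and 9 of them were described here: Gbp2, Gbp2b, Gbp3, Gbp4, Gbp5, Gbp6, Gbp7, Gbp8 and Gbp9. They were found by symbol and are 9 of 55536 annotated genes and of 22015 protein-coding genes of the nuclear genome. The members lie in 2 clusters. Gbp5, Gbp7, Gbp3, Gbp2b and Gbp2 follow each other on the plus strand of chromosome 3, from 142493978 to 142638008. Gbp8, Gbp9, Gbp4 and Gbp6 lie on the minus strand of chromosome 5, from 105014150 to 105293698. Genome positions refer to build mm10 and GENCODE M21. The annotation holds 3 further genes of the family, Gbp10 and Gbp11 on chromosome 5 and the pseudogene Gbp2-ps on chromosome 3.

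The cells were primary macrophages grown from bone marrow of C57BL/6J mice, and sex and age are not recorded. They had been given Lipid A, the membrane anchor of endotoxin and the ligand of Toll-like receptor 4, at 100 ng/ml over 12 h, were then kept without it for another 12 h, and were restimulated at 100 ng/ml over 25 min. Total RNA of the cytosolic fraction, 1 µg as starting material, was depleted of ribosomal RNA and sequenced in 1 group of 3 libraries, biological replicates 1 to 3, which carry the same donor entry. All libraries received both Lipid A exposures, so no level below can be set against untreated or unstimulated cells. An SD here describes the spread of 3 samples only and may reflect technical variation.

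Guanylate-binding proteins are induced by interferons, chiefly interferon gamma, and in macrophages also downstream of Toll-like receptor 4 through interferon beta. A GTPase domain at the amino end lets them assemble on membranes, and a helical part follows it. They coat vacuoles that hold bacteria or parasites, and bacteria in the cytosol, and help to open these compartments and to expose lipopolysaccharide and DNA to inflammasomes. Some members end in a CaaX box, a cysteine followed by 3 residues, to which a lipid is attached that holds the protein on membranes. Interferon responses reach promoters through the interferon-stimulated response element (ISRE), bound by interferon regulatory factors, and through the gamma-activated site (GAS).

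Promoter windows of RefSeq, from 250 bases before to 50 bases after the start and on build GRCm38.p6, were matched for 5 of the 9 members, all on chromosome 3: Gbp2, Gbp2b, Gbp3, Gbp5 and Gbp7. For Gbp4, Gbp6, Gbp8 and Gbp9 no window was matched. The ISRE core was searched as GAAANNGAA on either strand, and each of the 5 matched members held it in a window, against 8.56% of all 32851 windows. The stretches below show the matches, in capitals, read on the plus strand, on which all of them appear as the reverse complement of these letters; 30 bases before and 15 after are included.
Gbp5, chr3:142496740-142496793: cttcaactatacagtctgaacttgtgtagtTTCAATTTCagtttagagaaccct
Gbp7, chr3:142530254-142530307: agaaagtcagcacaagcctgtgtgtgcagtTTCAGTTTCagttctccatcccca
Gbp3, chr3:142559970-142560029: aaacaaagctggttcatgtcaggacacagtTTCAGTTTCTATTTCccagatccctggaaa
Gbp2b, chr3:142594681-142594734: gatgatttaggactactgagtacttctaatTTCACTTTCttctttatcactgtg
Gbp2, chr3:142620575-142620628: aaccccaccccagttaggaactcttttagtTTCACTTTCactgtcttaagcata

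Gbp7 and Gbp3 held the same core, TTCAGTTTC, and Gbp2 and Gbp2b held TTCACTTTC. In Gbp3 a second match overlapped the first. The match began 164 bases before the RefSeq start in Gbp5, 136 in Gbp2b, 58 in Gbp2, 52 in Gbp7 and 44 in Gbp3. In Gbp2 the GENCODE start of the leading transcript lies upstream of the RefSeq start, and the match began 3 bases inside its first exon. Gbp3 has 2 RefSeq windows, and the match stood in the upstream one, 411 bases before the start of Gbp3-202, the transcript that led the gene in these libraries. The letters TTCNNNGAA of a GAS were found in the windows of Gbp5 and Gbp7, at 2 places each, against 8.30% of all windows. A kappaB site was found in Gbp5 alone (4.51% of all windows), and the TATA box letters TATAAA, on either strand, in Gbp3 alone (13.6% of all windows). A match in letters describes the window and does not show that a factor was bound, and these libraries hold no binding data.

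The coding sequences of the members, read from the GENCODE transcripts, ran from 1575 bases in Gbp8 to 1914 in Gbp7. The cysteine codon of a CaaX box, 4 codons before the stop, was present in Gbp2, Gbp2b and Gbp5 and in none of the other 6. The last bases of these 3, with the 4 codons of the box in capitals and the stop codon after them, are shown with those of Gbp3, which has no cysteine codon there.
Gbp2: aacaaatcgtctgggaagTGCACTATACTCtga
Gbp2b: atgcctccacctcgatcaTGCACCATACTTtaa
Gbp5: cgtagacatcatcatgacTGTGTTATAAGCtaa
Gbp3: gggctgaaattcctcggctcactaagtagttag

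The family was abundant in the restimulated macrophages, and 1 gene led it. The 9 members summed to 540 TPM in replicate 1, 923 TPM in replicate 2 and 916 TPM in replicate 3, a mean of 793 ± 219 TPM (SD, n = 3). TPM, transcripts in a total of 1000000, is a level per length, scaled to the same sum within each library. At least 1 TPM in every library was measured for 8 of the 9 members, where 42.1% of all nuclear protein-coding genes reached that limit; Gbp2b was the exception. Gbp2, Gbp6, Gbp3 and Gbp5 were in the top 10% of the genes that reached it. The chromosome 3 cluster held 70.8 ± 1.04% of the summed TPM and the chromosome 5 cluster 29.2 ± 1.04% (SD, n = 3). In bulk RNA, fewer cells that express a gene and less RNA per cell cannot be told apart.

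**Figure D1:**
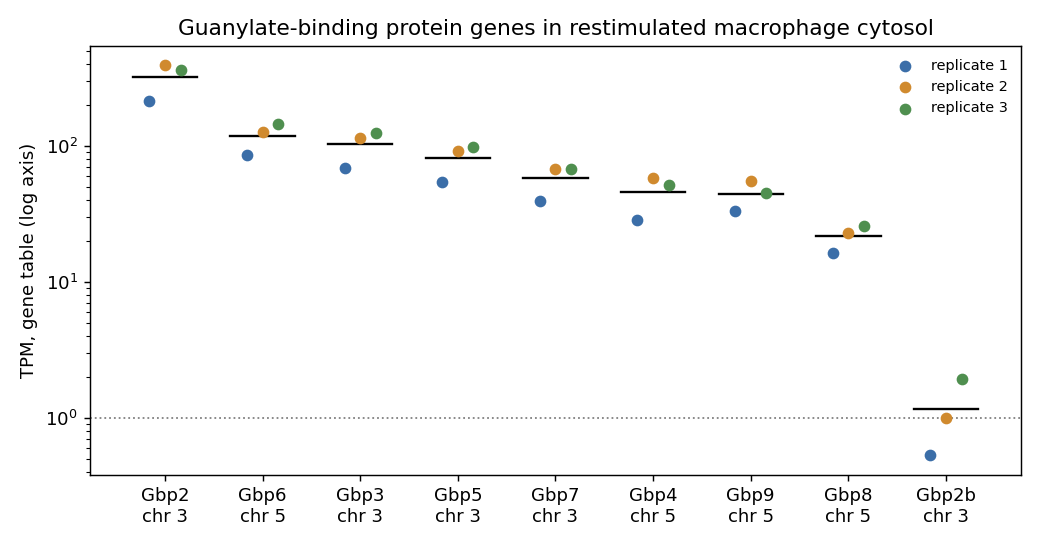
Level of each member in TPM (log axis) in the 3 libraries of the gene table, ordered by mean; points are libraries, black lines are means over the 3 libraries and the dotted line marks 1 TPM. Gbp2 stands above all others in every library, Gbp2b lies near 1 TPM, and replicate 1 is the lowest point of each member on this scale.

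Among the members with a CaaX box, Gbp2, which gathers on parasite and bacterial vacuoles, was the leading gene of the family. It measured 213 TPM in replicate 1, 389 TPM in replicate 2 and 361 TPM in replicate 3, and ranked 108 among protein-coding genes by its mean of 321 ± 94.4 TPM (SD, n = 3). It lies at chr3:142620602-142638008. Its share of the summed TPM of the family was 39.5%, 42.1% and 39.4% in replicates 1 to 3, so the share varied less than the level. In each library Gbp2 had at least 2.49 times the TPM of the next member, Gbp6.

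Gbp5, which promotes assembly of the NLRP3 inflammasome, lies at chr3:142493978-142522344 and measured 54.4, 90.9 and 97.3 TPM in replicates 1, 2 and 3 (mean 80.9 ± 23.1, SD, n = 3). Gbp2b, once named Gbp1 and the closest relative of Gbp2 in this family, lies at chr3:142594847-142619179 and was the lowest member. It measured 0.53, 0.99 and 1.93 TPM, from 124, 69 and 329 expected counts. The authors' credibility bounds of its TPM were 0.432 to 0.616, 0.754 to 1.20 and 1.70 to 2.11, and did not overlap in TPM. These bounds were not rescaled for what else each library holds. Whether they stay apart on another scale was not examined. Gbp2 and Gbp2b agree in 82.5% of aligned coding bases and begin 25.8 kb apart, and yet the mean levels were 321 and 1.15 TPM. Of all stretches of 75 bases in Gbp2b, 0.873% also occur, without a mismatch, in another gene; shorter or inexact matches were not examined.

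Gbp3 and Gbp7 are each other's closest relatives, with 79.3% of aligned coding bases in common, and lie side by side at chr3:142560026-142573209 and chr3:142530342-142550149. Gbp3 measured 68.8, 114 and 123 TPM in replicates 1, 2 and 3 (mean 102 ± 29.3, SD, n = 3). Gbp7, which takes part in defence against vacuolar microbes, measured 39.1, 67.2 and 66.9 TPM (mean 57.7 ± 16.1). The share of Gbp7 in the family's TPM was the steadiest of all members, at 7.27 ± 0.0260% (SD, n = 3).

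On chromosome 5, Gbp6 led with 85.7, 126 and 144 TPM in replicates 1, 2 and 3 (mean 118 ± 29.7, SD, n = 3), second in the whole family. It lies at chr5:105270702-105293698. Gbp4, at chr5:105115767-105139586, measured 28.5, 58.0 and 51.0 TPM (mean 45.8 ± 15.4), and Gbp9, at chr5:105077630-105139539, 33.2, 54.5 and 44.9 TPM (mean 44.2 ± 10.7). Gbp8, at chr5:105014150-105139540, was the lowest of this cluster with 16.3, 22.9 and 25.7 TPM (mean 21.6 ± 4.85). The annotated spans of Gbp8, Gbp9 and Gbp4 overlap, because a transcript of each starts in the same place: the first exons of Gbp4-201, Gbp8-201 and Gbp9-202 all end, on the minus strand, at position 105139480. Whether the counting used strand is not given in the sources used here, and for these overlapping genes all transcripts run on the same strand.

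By mean TPM the order was Gbp2, Gbp6, Gbp3, Gbp5, Gbp7, Gbp4, Gbp9, Gbp8 and Gbp2b. The ranges over the 3 libraries did not overlap between Gbp2 and Gbp6, between Gbp9 and Gbp8 and between Gbp8 and Gbp2b, and they overlapped for every other pair of neighbours from Gbp6 to Gbp9. Without replicate 1, in which each member was lowest in TPM, the ranges of neighbours overlapped only for Gbp4 and Gbp9. Within a library, too, the other neighbours kept their order. Gbp3 had 1.26, 1.26 and 1.27 times the TPM of Gbp5 in replicates 1, 2 and 3. Gbp6 exceeded Gbp3 1.25-fold, 1.10-fold and 1.16-fold. Gbp4 and Gbp9 did not differ beyond their spread: Gbp4 had 0.860, 1.06 and 1.13 times the TPM of Gbp9, higher in 2 of 3 libraries. The widest step, from Gbp8 to Gbp2b, was 30.7-fold, 23.2-fold and 13.3-fold.

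TPM depends on what else a library holds, and nuclear protein-coding genes took 29.6%, 40.4% and 34.8% of TPM in replicates 1, 2 and 3. The libraries were therefore also compared in protein-coding CPM, which is a gene's expected counts for every 1000000 that fell on nuclear protein-coding genes. This scale does not correct for length and was used only between libraries. The summed members measured 2889, 3497 and 4062 protein-coding CPM in replicates 1, 2 and 3. Replicate 1 was lowest for 8 of the 9 members, where 18.0% of the 9604 protein-coding genes that averaged 1 TPM or more were lowest in it. Replicate 3 was highest for 8 of the 9, where 22.3% of those genes were highest in it. The exceptions were Gbp8, with 63.9, 63.3 and 87.6 protein-coding CPM in replicates 1, 2 and 3, and Gbp9, with 264, 312 and 302.

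The size of the difference between libraries varied among the members. The highest library exceeded the lowest 1.45-fold for Gbp2 (923, 1216 and 1339 protein-coding CPM), 1.51-fold for Gbp5 (299, 356 and 451) and 1.53-fold for Gbp3 (313, 379 and 478). For Gbp6 the ratio was 1.34-fold (491, 517 and 659), for Gbp7 1.35-fold (367, 433 and 494) and for Gbp4 1.47-fold (166, 218 and 243). Gbp9 differed least, 1.18-fold, and Gbp2b most, 3.14-fold (2.59, 3.53 and 8.11 protein-coding CPM). The median over members of the log2 range was 0.54, against 0.34 over the 9604 genes. The median log2 ratio of a library to the mean of the others was -0.43, -0.06 and 0.39 for the members in replicates 1, 2 and 3, and 0.09, -0.02 and -0.09 for all genes.

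**Figure D2:**
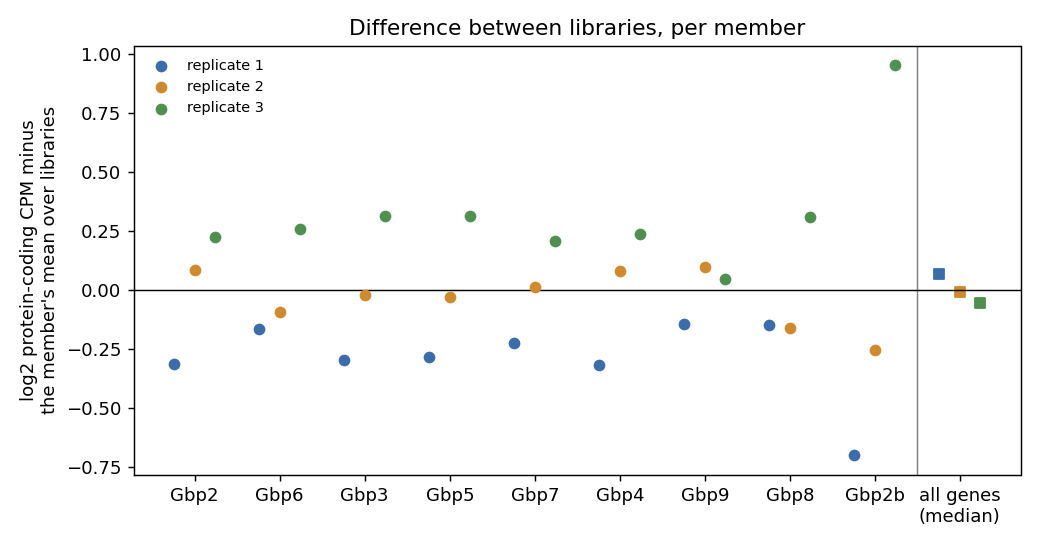
Log2 protein-coding CPM of each member in each library minus the member's mean over the 3 libraries; points are libraries, and the squares at the right are the medians over 9604 protein-coding genes. Replicate 3 is the highest point for every member but Gbp9, and replicate 1 the lowest for every member but Gbp8, whereas the squares for all genes lie close to 0.

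These counts depend on the scale. With TMM factors of edgeR all 9 members were lowest in replicate 1 and highest in replicate 3, where 33.1% and 35.2% of the 9604 genes were. In TPM all 9 were lowest in replicate 1, where 58.3% of all genes were too. On that scale 5 were highest in replicate 3, where 16.95% of all genes were. The other 4 were highest in replicate 2, where 74.84% of all genes were. In TPM the median log2 ratio of all genes was -0.26 in replicate 1, 0.33 in replicate 2 and -0.12 in replicate 3. This pattern was not tested, since each replicate is 1 library and the members within a library are not replicates of each other.

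The libraries also differed in other respects. Total expected counts were 55517261, 21311556 and 45635014 in replicates 1, 2 and 3. The nuclear RNAs Malat1, Neat1 and Xist summed to 1247, 1024 and 273.6 TPM, highest in replicate 1, in which most members were lowest. Malat1 made up most of the sum (1156, 976 and 246 TPM), and Xist set replicate 1 further apart, at 30.2, 2.27 and 1.01 TPM. In protein-coding CPM Malat1 measured 8329, 3480 and 1444 in replicates 1, 2 and 3, Neat1 924, 212 and 152, and Xist 803, 42.3 and 23.1. On that scale replicates 1 and 2 stood further apart than in TPM for each of them. Sex is not recorded, and its part in the Xist difference was not tested. The part of these differences in the members' pattern was not tested. All 8 macrophage markers exceeded 1 TPM throughout, and their median level was 246 ± 72.0 TPM (SD, n = 3). In protein-coding CPM 5 of 8 were lowest in replicate 1 and 2 of 8 highest in replicate 3, against 18.0% and 22.3% of all genes. The 35 markers of 9 other cell types, T cells and natural killer cells among them, summed to 7.26, 10.5 and 13.1 TPM; 1 of them, a gene of the endothelial list, reached 1 TPM in every library, and 3 had no counts.

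The authors deposited a second quantification, made from the reads without the alignment, and its estimated counts were summed per gene. None of the 9 members differed over 1.5-fold in mean protein-coding CPM between the quantifications, where 1.18% of the 9604 genes did. The ratio of the second to the first lay between 0.985 for Gbp6 and 1.08 for Gbp2b, with a median of 1.01 over the members and 1.00 over all genes. In the second quantification, too, 8 of 9 members were lowest in replicate 1 and 8 highest in replicate 3 in protein-coding CPM. Of the 9604 genes, 17.7% and 22.06% were. In its own TPM the libraries stood in another order: 8 of 9 members were lowest in replicate 3, where 99.15% of the 9604 genes were too. All 9 were highest in replicate 2, where 47.69% of those genes were. Gbp2 measured 136, 198 and 80.2 TPM there, and the summed members 364, 482 and 212 TPM. Nuclear protein-coding genes took 20.5%, 21.4% and 7.95% of the TPM of that table in replicates 1, 2 and 3.

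**Figure D3:**
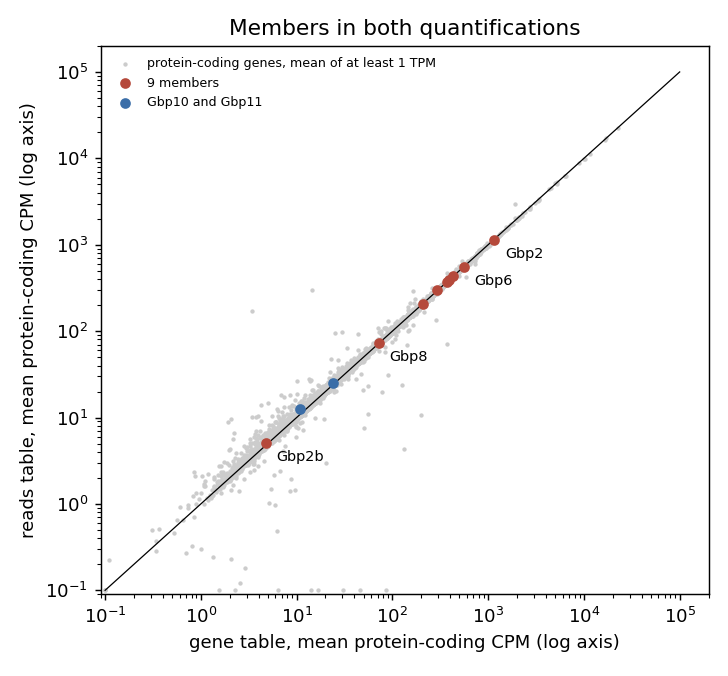
Mean protein-coding CPM over the 3 libraries in the gene table (horizontal, log axis) and in the sums of the table made from the reads (vertical, log axis), with values under 0.1 drawn at 0.1. Grey points are the 9604 protein-coding genes that averaged 1 TPM or more, and the line marks equal values. The 9 members, in red, lie on the line, as do Gbp11 and, at 1.15 times, Gbp10, in blue.

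Both quantifications face the same limit where members are near-identical, and this concerns Gbp6. Its coding sequence and that of Gbp10 share 98.4% of bases, and of all 75-base stretches in its transcripts 67.3% also occur in another gene. For the other 8 members this share lay between 0.578% in Gbp5 and 11.3% in Gbp7, even though Gbp4 and Gbp8 agree in 93.0% of aligned coding bases and Gbp9 and Gbp6 in 91.0%. Gbp10 itself measured 0.86, 2.21 and 3.40 TPM and shared 77.8% of its stretches. A transcript that runs across Gbp10 and Gbp6, Gm43302, named here after the annotation had been inspected, shared 99.4% and measured 0.16, 1.22 and 0.35 TPM. The posterior SD that the authors deposited was at most 0.382% of the count for Gbp6, 8.18% for Gbp10 and 75.4% for Gm43302. Gbp11, annotated as a polymorphic pseudogene, measured 5.83, 5.05 and 7.01 TPM and, unlike most members, was lowest in replicate 2. Gbp2-ps had no counts, which allows up to 3 counts a library.

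Not all of a member's RNA came from a transcript annotated as protein-coding. That of Gbp2 did so almost wholly, with 99.9% of its TPM in such transcripts, and Gbp2b, Gbp3 and Gbp7 had 100% there. For Gbp2b and Gbp7 the annotation fixes this value, since all their transcripts are of the protein-coding type. This type also includes transcripts too short to encode the full protein. One is Gbp3-207, of 649 bases, against 1860 coding bases in Gbp3-202. It held 1.59%, 1.34% and 2.15% of Gbp3 TPM in replicates 1, 2 and 3. For 4 members, Gbp2, Gbp4, Gbp5 and Gbp6, the annotation has a transcript annotated as a target of nonsense-mediated decay, the pathway that degrades RNA with an early stop codon. In 1 of these 4, Gbp4, that transcript was the leading one, where 5.39% of 2078 genes that have such a transcript and average 5 TPM or more were led by one. The same transcript led each of the 9 members in both quantifications, although Gbp2b has only 1 annotated transcript.

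Gbp4-202, the decay-annotated transcript, held 54.1%, 46.3% and 54.8% of Gbp4 TPM in replicates 1, 2 and 3, a mean of 51.7 ± 4.70% (SD, n = 3). In the table made from the reads it held 46.7%, 44.4% and 49.7%. Gbp4-201, which encodes the full protein, held 12.2%, 12.8% and 9.93%. A short protein-coding transcript of 709 bases, Gbp4-203, held 25.4%, 37.7% and 30.6% of TPM but only 4.02%, 6.55% and 5.21% of counts, since TPM divides by length. The full-length and the decay-annotated transcript differ by 29 bases alone, at the end of exon 2 of 11, chr5:105136810-105136838 on the minus strand. These 29 bases are coding in Gbp4-201 and are spliced out in Gbp4-202, and without them the annotated reading frame ends after 309 bases in place of 1893. The stretch is shown 5′ to 3′ on the transcript, with the 29 bases in capitals and 30 bases on either side, the last 30 from exon 3.
Gbp4-201: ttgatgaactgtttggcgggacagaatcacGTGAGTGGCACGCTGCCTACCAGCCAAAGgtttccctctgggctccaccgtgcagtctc

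The 29 bases begin with GTGAGT, letters common at the start of an intron. Only reads that reach these bases or cross their junction can tell Gbp4-201 from Gbp4-202. The counts behind the transcripts were 5981, 3084 and 7808 for Gbp4-202 and 1363, 858 and 1425 for Gbp4-201 in replicates 1, 2 and 3. Gbp4-202 was the higher of the pair in each library and in each quantification, 4.42-fold in TPM in replicate 1, 3.62-fold in replicate 2 and 5.52-fold in replicate 3.

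Gbp6 had the second largest share of decay-annotated RNA. Gbp6-203 held 38.8%, 38.0% and 28.7% of Gbp6 TPM in replicates 1, 2 and 3, and the full-length Gbp6-201 held 58.4%, 60.2% and 70.6%. Of expected counts Gbp6-203, the longer of the 2, held 50.4%, 49.9% and 39.8%, and Gbp6-201 45.8%, 47.6% and 59.2%. In the table made from the reads Gbp6-203 held 28.7%, 29.9% and 20.0% of TPM. This transcript skips exon 3, 128 bases at chr5:105288927-105289054, and its reading frame ends after 186 bases in place of 1833. It also has a last exon of 2586 bases in place of 877, and reads from the longer part can be given to it whether or not exon 3 was skipped. In both quantifications replicate 3 had the lowest share of it.

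Gbp8 had its second transcript in Gbp8-204, a processed transcript with no annotated reading frame, which held 33.7%, 40.7% and 25.4% of its TPM. In the table made from the reads its share was lower, at 20.7%, 28.8% and 13.6%. Gbp5 had 5.48 ± 0.649% (SD, n = 3) in decay-annotated transcripts. Several transcripts had counts in one quantification and none or few in the other, Gbp9-202 with the most. This transcript, which starts in the first exon of Gbp4, had no counts in the table made from the alignment and 2164, 0 and 2577 estimated counts in the table made from the reads. Gbp5-204, a processed transcript, likewise had no counts in the former and up to 580 in a library in the latter.

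**Figure D4:**
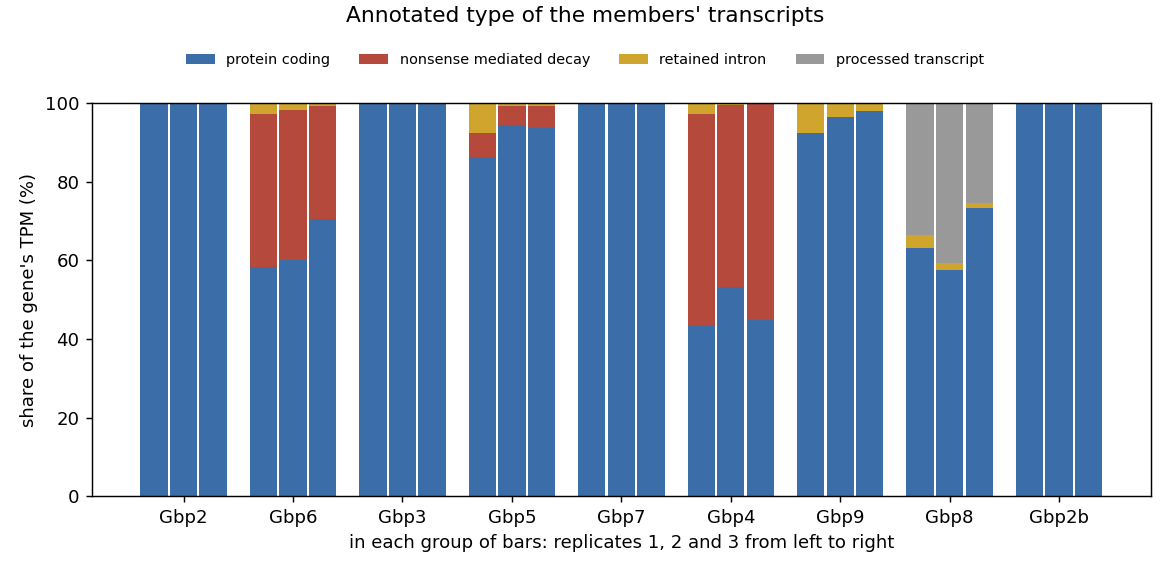
Share of each member's TPM (percent, from 0 to 100) held by transcripts of each annotated type, with 1 bar for each of replicates 1, 2 and 3 from left to right. Gbp4 has about as much decay-annotated as protein-coding RNA, Gbp6 follows, Gbp8 has a large share of processed transcript, and the retained-intron part is widest in replicate 1 of Gbp5 and Gbp9.

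For 5 members, Gbp4, Gbp5, Gbp6, Gbp8 and Gbp9, the annotation has a transcript with a retained intron. Its share of the gene's TPM was highest in replicate 1 for 5 of these 5, where 76.1% of 4212 protein-coding genes that have such a transcript and average 5 TPM or more were highest there; the members' count is close to that background. In Gbp5 it was 7.65%, 0.814% and 0.843% in replicates 1, 2 and 3, and in Gbp9 7.53%, 3.52% and 1.94%. Gbp8 had 3.26%, 1.79% and 1.20%, Gbp6 2.83%, 1.84% and 0.710%, and Gbp4 2.70%, 0.448% and 0.334%. The table made from the reads gave larger shares for these 3 members, 7.43%, 3.32% and 2.73% for Gbp8, 4.41%, 2.80% and 1.73% for Gbp6 and 5.93%, 0.786% and 0.863% for Gbp4, with replicate 1 again the highest. For Gbp5 the shares there were slightly larger too, at 8.14%, 1.00% and 0.988%. For Gbp9 they were slightly lower, at 7.50%, 3.33% and 1.83%. Replicate 1 was the library with the highest summed TPM of the nuclear RNAs named above, and the part of that difference in these shares was not tested.

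Of 16 genes of interferon signalling, 14 reached 1 TPM in all libraries. Among them were Stat2 (163 ± 39.8 TPM), which encodes a signal transducer, and Ifnar2 (78.3 ± 20.9 TPM; SD, n = 3), which encodes a chain of the receptor for interferon beta. The ligands were the low end of the list. The interferon gamma gene Ifng was at 0.01, 0 and 0 TPM. The interferon beta gene Ifnb1 was at 0.84, 0.86 and 3.34 TPM, from 40, 12 and 119 expected counts. In protein-coding CPM Ifnb1 measured 0.834, 0.613 and 2.93. It was highest in replicate 3 on both scales, and lowest in replicate 2 in protein-coding CPM. In protein-coding CPM, 10 of the 15 genes of this list that averaged 1 TPM or more were lowest in replicate 1. In replicate 3, 11 were highest. Of all genes, 18.0% and 22.3% were.

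The immunity-related GTPases, a family that works with guanylate-binding proteins at vacuoles, gave similar counts. All 7 reached 1 TPM in all libraries, with the highest levels for Irgm1 (238 ± 67.2 TPM), Tgtp2 (221 ± 101 TPM) and Iigp1 (127 ± 43.2 TPM; SD, n = 3). In protein-coding CPM 7 of 7 were lowest in replicate 1 and 6 of 7 highest in replicate 3, against 18.0% and 22.3% of all genes. Tgtp1 and Tgtp2 are near-identical, so the division between them is uncertain.

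The genes whose products act on or after the family were expressed as well. Their counts by library, in protein-coding CPM, can be read against the 18.0% of all genes lowest in replicate 1 and the 22.3% highest in replicate 3. All 6 genes of CaaX processing reached 1 TPM in all libraries, with the highest levels for Pggt1b (13.5 ± 1.94 TPM), Fnta (9.38 ± 0.637 TPM) and Zmpste24 (8.68 ± 0.917 TPM; SD, n = 3), and 1 of 6 was lowest in replicate 1 and 1 of 6 highest in replicate 3. Pggt1b and Fnta encode subunits of the prenyl transferases, and Zmpste24 a protease that trims such ends. All 9 genes listed for the ubiquitin and ubiquitin-like conjugation that steers the family to vacuoles were above the limit. The highest were Gabarap (338 ± 96.1 TPM), Trim21 (26.4 ± 5.61 TPM) and Atg3 (22.2 ± 5.05 TPM). Of the 9, 3 were lowest in replicate 1 and 2 highest in replicate 3. Of the cytosolic sensing and pyroptosis genes 8 of 8 were above it, led by Casp1 (96.9 ± 19.2 TPM), Gsdmd (58.3 ± 11.0 TPM) and Aim2 (42.0 ± 7.80 TPM), which encode an inflammasome protease, a pore-forming protein and a DNA sensor; 3 of 8 were lowest in replicate 1 and 6 of 8 highest in replicate 3. The atlastins, membrane-fusing relatives of the family, measured 24.8 ± 3.28 TPM for Atl3, 5.55 ± 0.686 TPM for Atl2 and 0.357 ± 0.0379 TPM for Atl1.

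The 5 genes whose differences between libraries were most like those of the summed members were Phf11d, Prdx5, Usp12, Thbs1 and Pld4. Likeness was the root mean square difference of centred log2 protein-coding CPM over the 3 libraries, among genes that averaged 20 TPM or more, and lay between 0.00707 for Phf11d and 0.0208 for Pld4. Phf11d measured 215, 257 and 299 protein-coding CPM in replicates 1, 2 and 3. With 3 libraries such likeness is common: 177 of 2738 genes came within 0.1 of the family.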

How the data were processed

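Total RNA-seq of 3 cytosolic libraries was used as deposited. Per the file headers, the authors' gene tables hold expected counts, which are not normalized, and TPM and FPKM scaled within each library, with posterior SDs and credibility bounds; their transcript tables hold expected counts, TPM and each isoform's share of its gene, and a separate table holds estimated counts and TPM made from the reads. The authors deposited each isoform's share of its gene in percent, per the file headers. The deposited description files name build mm10 and GENCODE M21. Programs, versions, read length and strand use were not given in the sources used here. Reads that fit several transcripts are divided by a model, so near-identical genes are uncertain.

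Identifiers outside the annotation (26345 of 81881) held 0.194%, 0.247% and 0.0227% of counts and were left out. A count of 0 allows 3 counts, or 0.0540, 0.141 and 0.0657 CPM by library, for counting error only. Depth makes low genes least precise in replicate 2.

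The members and lists were chosen with earlier results of these data known. With 1 group no test was made; counts of members stand beside the same over all nuclear protein-coding genes. Log2 ratios used an offset of 0.1. Named genes were all members, other Gbp genes, the 3 most abundant genes of each list, list genes without counts (there were none) and the 5 genes most like the family; Ifng, Ifnb1, Tgtp1, Atl1 to Atl3 and Gm43302 were added after their values were seen. The values of 1 gene of the interferon list are not reported here. Alternative scalings were TMM (edgeR 4.0.16) and size factors (DESeq2 1.42.0, R 4.3.3) on rounded counts. Python 3.11.15, numpy 2.4.6, pandas 2.3.3 and matplotlib 3.10.9 were used. Motifs and shared 75-base stretches were counted in RefSeq windows and GENCODE transcripts. Other lists and markers are described in the text. Replicates were grouped by the labels.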

Additional observations from a re-analysis of the deposited data

How the results depend on the processing

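The alternatives were other scales, limits, offsets, the second quantification and leaving out each library. The summed level of the members was 2247 when TPM was rescaled to nuclear protein-coding genes, 1115 FPKM, and 353 TPM in the table made from the reads, in which other RNAs took a larger share, against 793 TPM in the gene table; without 1 library it lay between 728 and 920 TPM. The count of members highest in replicate 3 fell from 8 to 5 in TPM, where 16.95% of all genes were highest in it. In the TPM of the table made from the reads, a scale added after seeing the data, that count was 0. Of all genes, 0.0521% were highest in replicate 3 on that scale. There 1 member was lowest in replicate 1, against 0.312% of all genes. The log2 ratios of Gbp2b turned to 0.63 in replicate 2 and -0.15 in replicate 3, and 21 of 27 ratios of the members changed sign. The median log2 ratio of all genes on that scale was 0.56, 0.53 and -1.46 in replicates 1, 2 and 3. The cause was not tested. On the other scales and limits the counts stayed within 1.5 times: 8 or 9 of 9 members at the limit of expression under each alternative, 7 of 8 to 9 of 9 lowest in replicate 1, 7 of 8 to 9 of 9 highest in replicate 3, and 0 of 9 over 1.5-fold between quantifications. All 9 members kept their place in the order except in the table made from the reads and without replicate 3, where 7 did. In the gene table's TPM 16 of 27 library ratios moved by more than the member's SD, and 4 changed sign, those of replicate 2 for Gbp3, Gbp5, Gbp6 and Gbp8 (Gbp8 from -0.26 to 0.12). The leading transcript's share moved by more than its SD in 6 of 9 members in the table made from the reads and in 4 of 9 by counts. No paired analysis was possible because the series has 1 group.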
